A study of Mus musculus with 8 samples.

Results

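Transcripts of 9 mouse genes of glycogen synthesis and breakdown were examined in ventricular lysates of hearts in which cardiomyocytes carry a Cre recombinase meant to delete floxed parts of Med13 and Med13l. The genes were taken by symbol from the 24341 genes of the deposited table: Ugp2, Gys1, Gbe1 and Ppp1r3c on the side of synthesis, Pygm, Pygb, Pygl and Phka1 on the side of breakdown, and Pgm2, whose enzyme works in both directions. All 9 were found and all 9 passed the filter of a mean of at least 1 FPKM (fragments per kilobase of transcript, scaled to the mapped fragments of the library). Pos Cre, as the labels call it, holds 4 libraries from male Med13/13L fl/fl mice that are positive for Cre. Neg Cre holds 4 libraries from male Med13/13L fl/fl mice without Cre. Both groups were fed tamoxifen chow and were 12 weeks old, 4 weeks after tamoxifen. Cre is described as specific to cardiomyocytes, its promoter and line are not named in the labels, and the presence of Cre and the loss of Med13 and Med13l cannot be told apart in this design. The lysates hold all cell types of the ventricle. The labels do not say that each library is a separate animal, so p-values measure the spread between these libraries, which may be technical.

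Heart muscle keeps glycogen as a store of glucose that can be used within the cell. Glucose 1-phosphate is made into UDP-glucose, glycogen synthase adds it to growing chains that start on the primer protein glycogenin, and the branching enzyme sets branch points. Glycogen phosphorylase removes glucose 1-phosphate from the chain ends. Phosphorylation by phosphorylase kinase turns phosphorylase on, while protein phosphatase 1, held on glycogen by targeting subunits, removes phosphate from synthase and phosphorylase and favours synthesis. Muscle, brain and liver forms of phosphorylase are encoded by Pygm, Pygb and Pygl.

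Estimated depth ran from 4480000 to 23300000 fragments per library, which puts at least 404 fragments per library behind each of the 9 glycogen genes other than Pygl, for which the estimate was 35.4 to 176 fragments. Med13 stood at 7.39 to 8.73 FPKM in Pos Cre and 10.3 to 15.3 FPKM in Neg Cre libraries, and Med13l at 2.35 to 2.59 FPKM in Pos Cre and 4.38 to 6.13 FPKM in Neg Cre libraries. These are levels of whole genes, with no separate value for the exons that Cre removes. The locus given for Med13 also spans its neighbour Ints2. The ribosomal precursor Rn45s parts the libraries into 5 with high levels (Pos Cre 1 and 2, Neg Cre 1, 3 and 4) and 3 with low levels (Pos Cre 3 and 4, Neg Cre 2), on either side of 100 FPKM. This split was made from the values, not from the labels, and it goes with depth. Estimated depth was 4480000 to 8580000 fragments in the high-Rn45s and 15100000 to 23300000 in the low-Rn45s libraries. Library names of Neg Cre 1 and 2 share a stem, which may mark a shared source. The median absolute log2 difference between that pair was 0.163, against 0.127 to 0.246 for the 5 other pairs of Neg Cre libraries. Neg Cre 2 is the only low-Rn45s library of its group. It differed by 0.246 from Neg Cre 3 and by 0.175 from Neg Cre 4, so it was closest to Neg Cre 1. Whether Neg Cre 1 and 2 share a source was not tested.

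Of the 9 glycogen genes, 5 fell and 1 rose in Pos Cre ventricles. Pygb and Ppp1r3c fell most, to 0.407 and 0.477 times the Neg Cre mean, and Pygm, Gys1 and Pgm2 fell less, whereas the branching enzyme Gbe1 rose. Pygl, Phka1 and Ugp2 did not pass the test. Calls rest on limma fitted to log2(FPKM + 1), with p-values adjusted by the Benjamini-Hochberg method over all 11688 genes tested and a threshold of 0.05. Of the 9 genes 11.1% were called higher and 55.6% lower, beside 19.7% and 19.4% of all genes tested, and the median log2 change was -0.42 over the 9 and -0.01 over all genes. The ranges of the groups did not overlap in 6 of the 9, which held for 38.0% of all genes tested. In bulk tissue, fewer cells of a type and less RNA per cell cannot be told apart.

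**Figure D1:**
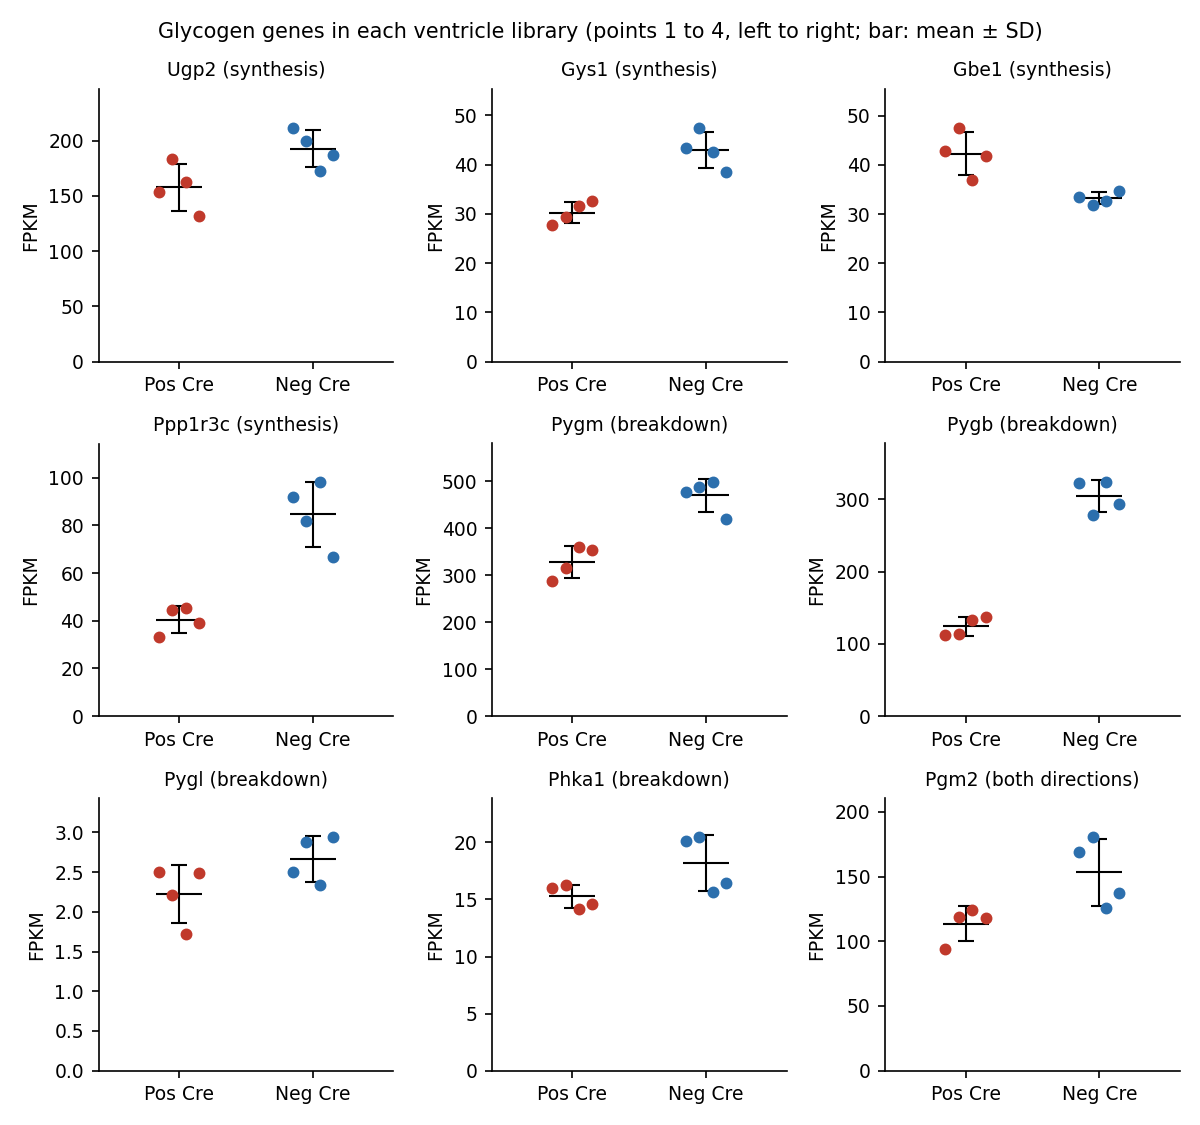
FPKM (vertical axes, starting at 0) of the 9 glycogen genes in the Pos Cre libraries (red) and the Neg Cre libraries (blue), points for libraries 1 to 4 from left to right, with the mean and SD of each group of 4. The groups do not overlap for Gys1, Gbe1, Ppp1r3c, Pygm, Pygb and Pgm2, and overlap for Ugp2, Pygl and Phka1.

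Among the genes of breakdown, the brain form of phosphorylase, Pygb (mm10, chr2:150786796-150831748), fell most. It stood at 112, 113, 134 and 137 FPKM in Pos Cre libraries 1 to 4, against 322, 279, 323 and 294 FPKM in Neg Cre libraries 1 to 4. The highest Pos Cre library lay below the lowest Neg Cre library by more than the range of either group. The mean was 124 ± 13.3 FPKM in Pos Cre and 304 ± 22.1 FPKM in Neg Cre libraries (SD, n = 4 each), and the log2 change was -1.29 (SE 0.093, limma adjusted p = 4.28e-06). By size of fall, Pygb stood at place 175 of the 11688 genes tested.

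Pygm, the muscle form and the most abundant of the 9 genes in both groups (chr19:6384429-6398459), fell less. Its levels were 287, 315, 360 and 353 FPKM in Pos Cre and 477, 488, 497 and 419 FPKM in Neg Cre libraries, with no overlap. Means were 329 ± 34.1 FPKM in Pos Cre and 470.1 ± 35.3 FPKM in Neg Cre libraries (SD, n = 4 each), and the log2 change was -0.52 (SE 0.095, limma adjusted p = 0.00165). Pygl, the liver form (chr12:70190815-70227683), was listed at 2.51, 2.21, 1.72 and 2.48 FPKM in Pos Cre and 2.50, 2.88, 2.34 and 2.94 FPKM in Neg Cre libraries. Its groups overlapped, and its log2 change of -0.19 had a 95% interval of -0.44 to 0.06 (limma adjusted p = 0.224).

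To show the regulatory sequence beside this difference between isoforms, the 250 bases before the RefSeq start (GRCm38.p6) are printed for both abundant phosphorylase genes, and for Ppp1r3c and Gbe1, the member of synthesis that fell most and the member that rose. Each runs 5′ to 3′ on the strand of its gene. They cover chr2:150786546-150786795 (plus strand), chr19:6384158-6384407 (plus), chr19:36736605-36736854 (minus) and chr16:70313699-70313948 (plus). Motif matches are in capitals.
Pygb: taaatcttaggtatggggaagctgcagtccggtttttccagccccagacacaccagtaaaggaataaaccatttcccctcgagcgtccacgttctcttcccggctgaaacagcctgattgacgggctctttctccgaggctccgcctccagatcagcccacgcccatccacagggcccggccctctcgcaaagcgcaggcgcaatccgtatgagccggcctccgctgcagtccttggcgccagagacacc
Pygm: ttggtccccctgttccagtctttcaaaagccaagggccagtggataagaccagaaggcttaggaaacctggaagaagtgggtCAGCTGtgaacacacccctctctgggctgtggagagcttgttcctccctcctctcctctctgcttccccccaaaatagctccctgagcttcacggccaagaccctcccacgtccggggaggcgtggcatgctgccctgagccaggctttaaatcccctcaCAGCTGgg
Ppp1r3c: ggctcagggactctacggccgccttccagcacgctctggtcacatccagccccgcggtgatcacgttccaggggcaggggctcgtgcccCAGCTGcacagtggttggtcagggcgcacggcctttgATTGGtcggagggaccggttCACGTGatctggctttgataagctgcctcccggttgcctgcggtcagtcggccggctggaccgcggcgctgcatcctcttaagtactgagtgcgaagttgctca
Gbe1: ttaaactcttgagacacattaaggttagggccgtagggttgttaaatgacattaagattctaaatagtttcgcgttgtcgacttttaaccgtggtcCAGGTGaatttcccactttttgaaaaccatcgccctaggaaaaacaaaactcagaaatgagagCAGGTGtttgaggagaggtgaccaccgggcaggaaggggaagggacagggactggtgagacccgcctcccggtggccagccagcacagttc
Both strands were searched for 7 motifs. These were the E-box, spelled CANNTG, and the CCAAT box as its name spells it. The GC box was searched with the letters GGGCGG. For the TATA box the letters were TATAAA and for the M-CAT motif of muscle genes they were CATTCC. The element bound by estrogen-related receptors, ERR, was searched as TNAAGGTCA, and the MEF2 site by its usual consensus. Pygm, Ppp1r3c and Gbe1 each hold 2 E-boxes, and Ppp1r3c also holds 1 CCAAT box on the strand opposite to its gene, so that ATTGG is in capitals. None of the 7 motifs was found in the 250 bases shown for Pygb. Of 32851 mouse promoter windows of the same length, 66.2% hold an E-box, 33.8% a CCAAT box and 32.7% a GC box. The TATA box occurs in 12.4% of these windows, the M-CAT motif in 12.6%, the ERR element in 1.14% and the MEF2 site in 2.92%. These matches describe letters only.

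The mix of phosphorylase transcripts differed between groups. Pygb made up 27.8%, 26.4%, 27.0% and 27.9% of the summed FPKM of the 3 forms in Pos Cre libraries, against 40.2%, 36.2%, 39.3% and 41.0% in Neg Cre libraries. All 4 Pos Cre libraries lay below all 4 Neg Cre libraries. The Pygb share was 27.3% ± 0.728 in Pos Cre and 39.2% ± 2.11 in Neg Cre libraries (SD, n = 4 each; exact two-sided permutation p = 0.0286, the smallest this design allows, and 0.0429 adjusted over the 3 shares). The Pygm share mirrored it, at 72.2% ± 0.783 in Pos Cre and 60.5% ± 2.11 in Neg Cre libraries (SD, n = 4 each; exact adjusted p = 0.0429). Pygl took 0.348% to 0.624% in Pos Cre and 0.284% to 0.411% in Neg Cre libraries, and its share was not distinguishable (exact adjusted p = 0.0857). One factor per library leaves a share as it is, while quantile normalization, which changes values within a library, gave differences (Pos Cre minus Neg Cre) of -13.8 percentage points for Pygb and 13.8 for Pygm. Like the members, the shares were chosen with earlier results of these data known, which their p-values do not take into account. In the high-Rn45s libraries the Pygb share differed by -13.1 percentage points (Pos Cre minus Neg Cre) and in the low-Rn45s libraries by -8.79, with too few libraries for the test to reach 0.05. The summed FPKM of the 3 forms was 401, 430.5, 495 and 493 in Pos Cre and 802, 769, 823 and 715 in Neg Cre libraries.

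**Figure D2:**
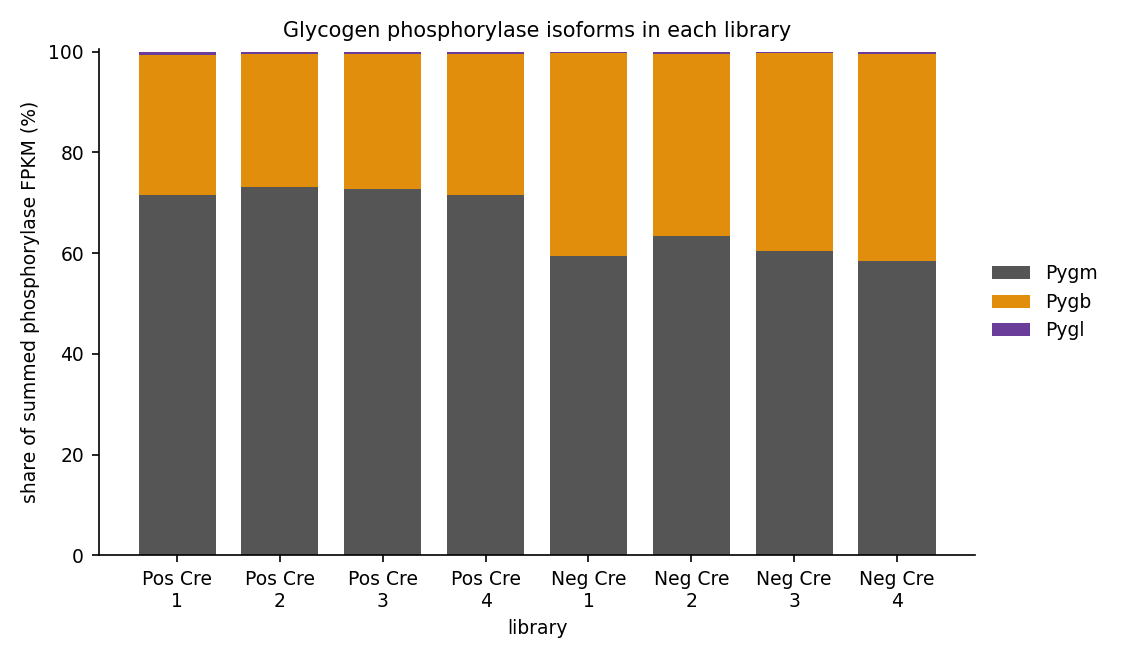
Share of Pygm (grey), Pygb (orange) and Pygl (purple) in the summed phosphorylase FPKM (percent, vertical axis) of each library. The Pygb share is 26.4% to 27.9% in the 4 Pos Cre libraries and 36.2% to 41.0% in the 4 Neg Cre libraries.

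Phka1, the muscle form of the alpha subunit of phosphorylase kinase (chrX:102513975-102644246), was not called. It stood at 16.0, 16.3, 14.2 and 14.6 FPKM in Pos Cre and 20.1, 20.5, 15.7 and 16.5 FPKM in Neg Cre libraries, where libraries 3 and 4 of Neg Cre lay within or next to the Pos Cre range. The log2 change was -0.23 with a 95% interval of -0.45 to -0.01 (limma adjusted p = 0.0985). It was called lower without Neg Cre library 3 (log2 change -0.29, adjusted p = 0.0364). Among the 3 low-Rn45s libraries the log2 change was -0.48. There Neg Cre is represented only by its library 2, which has the highest Phka1 level of all libraries (20.5 FPKM).

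On the side of synthesis, Ppp1r3c, which encodes the targeting subunit PTG of protein phosphatase 1 (chr19:36731731-36736604), fell most. Levels were 33.1, 44.3, 45.2 and 39.1 FPKM in Pos Cre libraries and 92.1, 81.9, 98.1 and 66.9 FPKM in Neg Cre libraries. No Pos Cre library reached the lowest Neg Cre library. The mean was 40.4 ± 5.61 FPKM in Pos Cre and 84.7 ± 13.6 FPKM in Neg Cre libraries (SD, n = 4 each), a log2 change of -1.04 (SE 0.13, limma adjusted p = 1.61e-04).

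Gys1, muscle glycogen synthase (chr7:45434839-45456617), stood at 27.7, 29.3, 31.6 and 32.6 FPKM in Pos Cre and 43.4, 47.5, 42.6 and 38.5 FPKM in Neg Cre libraries. The groups did not overlap, and the log2 change was -0.49 (SE 0.086, limma adjusted p = 0.00123). Of the annotated exonic bases of Gys1, 6.47% are shared with exons of Ruvbl2 on the opposite strand, which was also lower, at 9.90 FPKM in Pos Cre and 15.2 FPKM in Neg Cre libraries on average. How strand was used when fragments were assigned is unknown here, so reads from the shared bases could belong to either gene.

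Gbe1, the branching enzyme (chr16:70313949-70569720), was the 1 member that rose. It stood at 42.9, 47.5, 37.0 and 41.8 FPKM in Pos Cre libraries, against 33.6, 31.8, 32.8 and 34.7 FPKM in Neg Cre libraries. The lowest Pos Cre library lay just above the highest Neg Cre library. The mean was 42.3 ± 4.33 FPKM in Pos Cre and 33.2 ± 1.24 FPKM in Neg Cre libraries (SD, n = 4 each), a log2 change of 0.34 (SE 0.084, limma adjusted p = 0.00981). Among the 3 low-Rn45s libraries, where Neg Cre is represented only by its library 2, the log2 change was 0.30 and the call was lost. The order of levels differed between the groups. Gys1 stood below Gbe1 in each Pos Cre library, at 61.6 to 85.4 FPKM of Gys1 per 100 FPKM of Gbe1. It stood above Gbe1 in each Neg Cre library, at 111 to 149 FPKM per 100.

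Ugp2, which makes UDP-glucose, was not called, and Pgm2, which interconverts glucose 1-phosphate and glucose 6-phosphate, was called lower here and in 11 of 20 other settings. Ugp2 stood at 153, 184, 163 and 132 FPKM in Pos Cre and 212, 199.5, 173 and 187 FPKM in Neg Cre libraries, with Neg Cre library 3 below Pos Cre library 2. Its log2 change was -0.29, with an unadjusted 95% interval of -0.53 to -0.05 (limma adjusted p = 0.0524). It was called lower without Pos Cre library 2 (log2 change -0.37, adjusted p = 0.0244) and without Neg Cre library 3 (-0.34, adjusted p = 0.0337). The locus the table gives for it (chr11:21239032-21371267) also spans its neighbour Vps54.

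The row named Pgm2 lies at chr4:99929451-99987294, the place that RefSeq names Pgm1 with Pgm2 as a synonym, and the row named Pgm1 lies at the RefSeq gene Pgm2. Pgm2 as named in the table stood at 93.8, 119, 124 and 118 FPKM in Pos Cre and 169, 181, 126 and 138 FPKM in Neg Cre libraries, so that the highest Pos Cre and the lowest Neg Cre library were close. The log2 change was -0.42 (SE 0.13, limma adjusted p = 0.0262). The call was lost without Pos Cre library 1 (log2 change -0.33, adjusted p = 0.0661), without Neg Cre library 1 (-0.37, adjusted p = 0.0785), without Neg Cre library 2 (-0.34, adjusted p = 0.0582) and among the 5 high-Rn45s libraries (-0.44, adjusted p = 0.0839). Of its exonic bases 13.6% are shared with Itgb3bp on the opposite strand, whose mean was 2.08 FPKM in Pos Cre and 1.68 FPKM in Neg Cre libraries. The row named Pgm1 stood at 3.81 ± 0.171 FPKM in Pos Cre and 3.79 ± 0.698 FPKM in Neg Cre libraries (SD, n = 4 each).

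In order of level per length, Pygm was highest in both groups, and Phka1 and Pygl were lowest. In Pos Cre libraries Ugp2, Pygb and Pgm2 came next, with ranges that overlap between neighbours, followed by Gbe1 and Ppp1r3c, which also overlap, and by Gys1. In Neg Cre libraries Pygb stood alone in the next place, above Ugp2 and Pgm2, which overlap, and then came Ppp1r3c, Gys1 and Gbe1 without overlap between neighbours.

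On the deposited scale, mean levels were lower in Pos Cre libraries on both sides of the pathway. The mean log2(FPKM + 1) of the 4 synthesis genes was 5.77 ± 0.0965 in Pos Cre and 6.14 ± 0.0798 in Neg Cre libraries, and that of the 4 breakdown genes 5.26 ± 0.0537 in Pos Cre and 5.81 ± 0.0558 in Neg Cre libraries (SD, n = 4 each). The difference, synthesis minus breakdown, was 0.443, 0.655, 0.555 and 0.382 in Pos Cre and 0.353, 0.303, 0.373 and 0.271 in Neg Cre libraries. The groups parted narrowly, between 0.382 in Pos Cre library 4 and 0.373 in Neg Cre library 3. Group means differed by 0.18 on the log2 scale, less than the span of the Pos Cre libraries, and this score over the members is given as a description, with no test. The score is a mean, and Pygb (log2 change -1.29) had the largest change of the genes in it. By the median, which 1 gene moves less, the log2 change was -0.39 over the synthesis genes and -0.37 over the breakdown genes. Gys1 stood at 6.67 ± 0.230 FPKM per 100 FPKM of summed phosphorylase in Pos Cre and 5.53 ± 0.438 in Neg Cre libraries (SD, n = 4 each). That sum includes Pygb, whereas the log2 changes of Gys1 (-0.49) and of Pygm alone (-0.52) were close to each other.

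**Figure D3:**
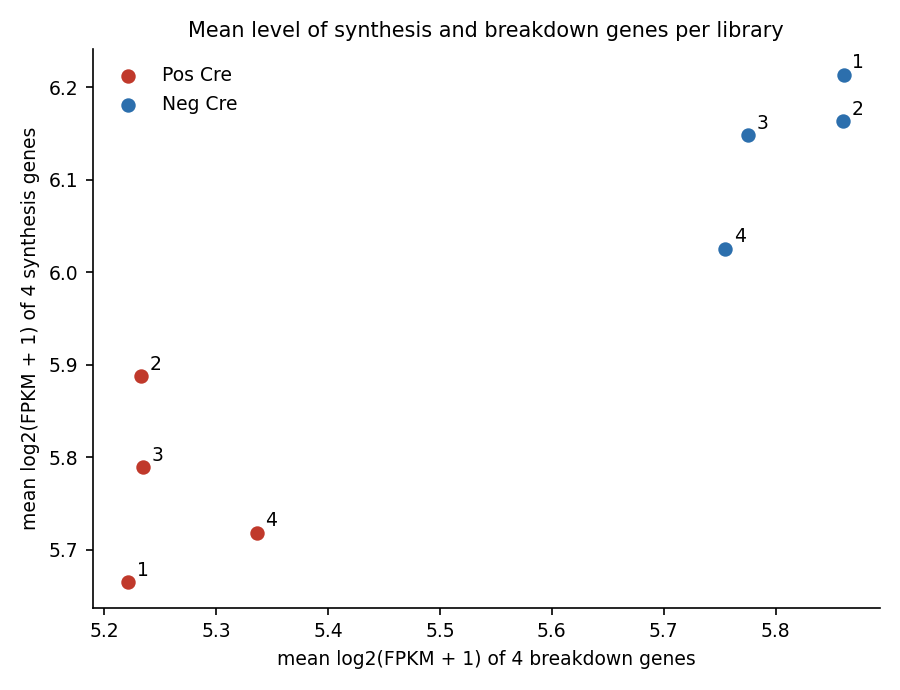
Mean log2(FPKM + 1) of the 4 synthesis genes (vertical axis) against that of the 4 breakdown genes (horizontal axis), 1 point per library, Pos Cre in red and Neg Cre in blue, labelled with the library number. On the deposited scale, Pos Cre libraries lie lower on both axes. Group means for synthesis are 5.77 in Pos Cre and 6.14 in Neg Cre libraries. For breakdown they are 5.26 in Pos Cre and 5.81 in Neg Cre libraries.

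Scaling bears on these directions. Summed over all genes, the deposited FPKM ran from 460601 to 478667 in Pos Cre and from 545102 to 612162 in Neg Cre libraries. When each library was scaled to a fixed sum of FPKM, the median log2 change of all genes moved from -0.01 to 0.27, and 5497 genes were called higher and 1008 lower, against 2307 and 2269 on the deposited scale. Under that scaling Pygb (log2 change -0.97) and Ppp1r3c (-0.73) were still called lower and Gbe1 (0.65) higher. Calls were lost for Gys1 (-0.18, limma adjusted p = 0.0875), Pygm (-0.20, adjusted p = 0.0969) and Pgm2 (-0.10, adjusted p = 0.460). The values of Ugp2 (0.03), Pygl (0.04) and Phka1 (0.07), not called in either scaling, changed sign. Under the fixed sum the synthesis genes lay on both sides of no change, from -0.73 (Ppp1r3c) to 0.65 (Gbe1). They did so on the deposited scale too, from -1.04 (Ppp1r3c) to 0.34 (Gbe1). The breakdown genes ran from -0.97 (Pygb) to 0.07 (Phka1) under the fixed sum. Mean levels of the sides, lower in Pos Cre libraries, are given for the deposited scale only. After quantile normalization Pygm (-0.22, adjusted p = 0.0926) and Pgm2 (-0.31, adjusted p = 0.0631) were not called. Of the 6 genes called, Pygb and Ppp1r3c kept their call in each of the 20 other settings, and Gbe1 and Gys1 in 19 of them. For the targeted gene Med13, the log2 change was -0.50 on the deposited scale (limma adjusted p = 0.00612). Scaled to a fixed sum it was -0.21 (adjusted p = 0.188), and among the high-Rn45s libraries -0.51 (adjusted p = 0.0529). Med13l was still called lower under the fixed sum (-0.50, adjusted p = 0.00479).

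**Figure D4:**
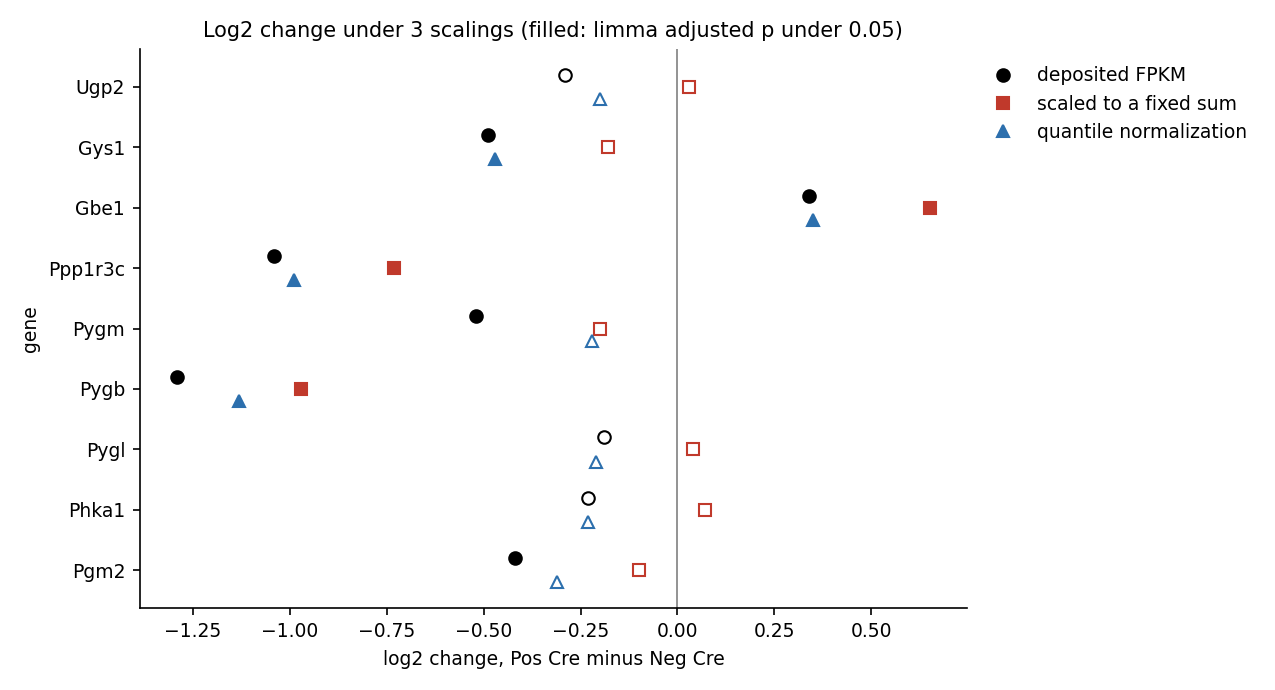
Log2 change, Pos Cre minus Neg Cre (horizontal axis), of the 9 glycogen genes on the deposited FPKM (black circles), after scaling to a fixed sum (red squares) and after quantile normalization (blue triangles), filled where the limma adjusted p is under 0.05. Pygb and Ppp1r3c are lower and Gbe1 is higher under all 3, while Gys1, Pygm and Pgm2 lose their call under at least 1.

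Further genes of glycogen metabolism were read from a list of 23, of which 20 passed the filter. Of these 20 genes 3 rose and 4 fell, beside 19.7% and 19.4% of all genes tested, and their median log2 change was 0.03. Glycogenin (Gyg), the primer of glycogen, rose to 206 ± 19.0 FPKM in Pos Cre libraries, against 121 ± 15.3 FPKM in Neg Cre libraries (SD, n = 4 each; log2 change 0.77, limma adjusted p = 2.51e-04). Stbd1, a protein that binds glycogen and membranes, rose to 13.4 ± 1.95 FPKM in Pos Cre, against 5.45 ± 1.30 FPKM in Neg Cre libraries (SD, n = 4 each; log2 change 1.17, limma adjusted p = 1.85e-04).

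Ppp1r3a, the muscle targeting subunit of protein phosphatase 1, fell beside Ppp1r3c. It stood at 39.6 to 48.8 FPKM in Pos Cre and 64.7 to 85.4 FPKM in Neg Cre libraries (log2 change -0.80, limma adjusted p = 1.55e-04). The liver form Ppp1r3b, at 9.02 ± 0.984 FPKM in Pos Cre and 8.67 ± 0.961 FPKM in Neg Cre libraries, and Ppp1r3d, at 7.13 ± 1.22 FPKM in Pos Cre and 7.55 ± 1.33 FPKM in Neg Cre libraries (SD, n = 4 each), were not called. Summed FPKM of these 4 targeting subunits was 96.9 to 104 in Pos Cre and 162 to 196 in Neg Cre libraries. Catalytic subunits Ppp1ca, Ppp1cb and Ppp1cc had log2 changes of 0.19, -0.09 and 0.00 and were not called. Ppp1ca (limma adjusted p = 0.0502) was called higher in 6 of 20 other settings, among them without Neg Cre library 2 (log2 change 0.22, adjusted p = 0.0279). Ppp1cc was called higher after scaling to a fixed sum (0.32). The loci given for Ppp1ca and Ppp1r3d also span their neighbours Rad9a and Fam217b.

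Of the 4 other phosphorylase kinase genes on the list, Phkg1 fell, Phka2 rose, and Phkg2 and Phkb were not called. Phkg1, the muscle catalytic subunit, stood at 3.76, 4.47, 4.30 and 6.10 FPKM in Pos Cre and 11.8, 12.8, 14.9 and 10.8 FPKM in Neg Cre libraries (log2 change -1.27, limma adjusted p = 4.4e-05). Phka2, the liver form of the alpha subunit, rose, at 9.34 to 10.9 FPKM in Pos Cre and 5.27 to 7.22 FPKM in Neg Cre libraries (log2 change 0.58, limma adjusted p = 0.00105). Phkg2, the other catalytic subunit, had 5.65 ± 1.15 FPKM in Pos Cre and 3.95 ± 1.11 FPKM in Neg Cre libraries (SD, n = 4 each; limma adjusted p = 0.0768), and the beta subunit Phkb 22.9 ± 0.457 FPKM in Pos Cre and 22.4 ± 1.61 FPKM in Neg Cre libraries. As ratios chosen after their values were seen, Phkg1 made up 45.3% ± 4.90 of the summed Phkg1 and Phkg2 in Pos Cre and 76.0% ± 6.33 in Neg Cre libraries (SD, n = 4 each), with no overlap. The loci that the table gives for Phkg1 and Phkg2 also span their neighbours Sumf2 and Ccdc189. Phka1 made up 57.3% to 63.2% of the summed Phka1 and Phka2 in Pos Cre and 68.5% to 75.7% in Neg Cre libraries.

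Laforin (Epm2a), a glycogen phosphatase, and malin (Nhlrc1), its partner ubiquitin ligase, were called lower with groups that overlap. Epm2a stood at 13.2 ± 2.03 FPKM in Pos Cre and 17.6 ± 2.15 FPKM in Neg Cre libraries (SD, n = 4 each; log2 change -0.40, limma adjusted p = 0.0242), and Nhlrc1 at 2.01 to 2.70 FPKM in Pos Cre and 2.42 to 4.08 FPKM in Neg Cre libraries (-0.40, adjusted p = 0.0330). Epm2a kept its call in 13 of 20 and Nhlrc1 in 9 of 19 other settings. Leaving out any of Pos Cre libraries 3 and 4 and Neg Cre libraries 1 and 3 ended the call of Epm2a (log2 changes -0.38 to -0.32), and leaving out any of Pos Cre libraries 1, 2 and 4 and Neg Cre libraries 2, 3 and 4 ended that of Nhlrc1 (-0.41 to -0.32). The acid glucosidase Gaa of the lysosome, at 55.0 ± 6.67 FPKM in Pos Cre and 52.5 ± 3.94 FPKM in Neg Cre libraries, and the synthase kinases Gsk3a, at 12.2 ± 1.49 FPKM in Pos Cre and 13.9 ± 1.78 FPKM in Neg Cre libraries, and Gsk3b, at 13.4 ± 0.739 FPKM in Pos Cre and 11.8 ± 3.86 FPKM in Neg Cre libraries (SD, n = 4 each), were not called.

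**Figure D5:**
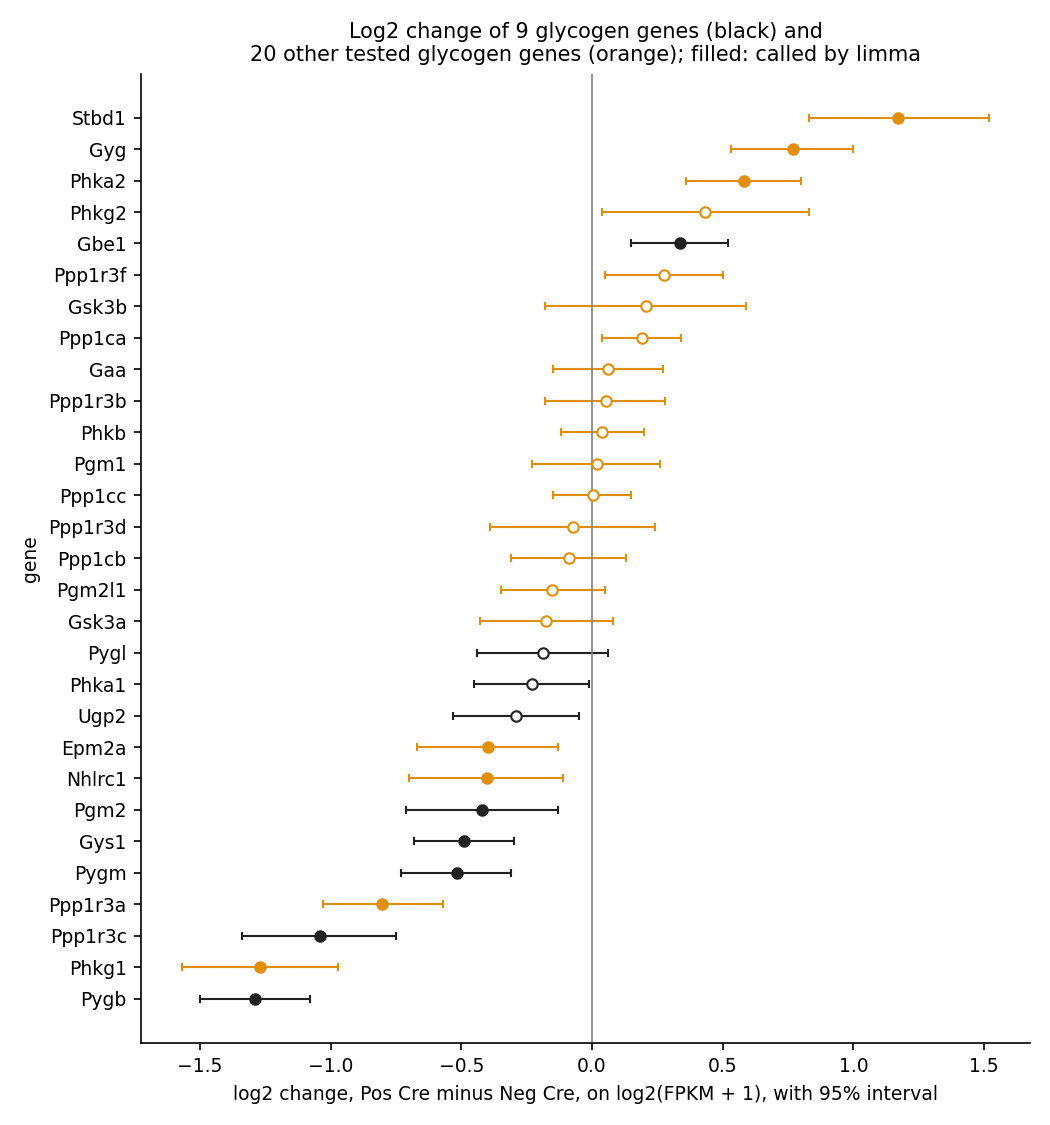
Log2 change, Pos Cre minus Neg Cre, on log2(FPKM + 1), with its 95% interval (horizontal axis), for the 9 glycogen genes (black) and 20 other tested genes of glycogen metabolism (orange), sorted by size, with filled points for genes called by limma. Pygb (-1.29), Phkg1 (-1.27) and Ppp1r3c (-1.04) are lowest, and Stbd1 (1.17), Gyg (0.77) and Phka2 (0.58) are highest.

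Markers of cell types also differed between the groups, and their part in the results was not tested. Of 10 cardiomyocyte markers 7 fell and 0 rose, with a summed level of 28884 to 29941 FPKM in Pos Cre and 57537 to 61007 FPKM in Neg Cre libraries. Myl2 had the largest part in the lower sum, at a mean of 6941 FPKM in Pos Cre and 20614 FPKM in Neg Cre libraries. Actc1 (log2 change 0.02), Actn2 (-0.01) and Mybpc3 (-0.12) were not called, so the markers did not fall alike. Of 10 fibroblast markers 6 rose and 1 fell (1517 to 1813 FPKM in Pos Cre, 1146 to 1254 FPKM in Neg Cre), and of 10 macrophage markers 6 fell and 0 rose (199 to 278 FPKM in Pos Cre, 303 to 396 FPKM in Neg Cre). Of 10 smooth muscle and pericyte markers 3 rose and 2 fell (1003 to 1452 FPKM in Pos Cre, 609 to 742 FPKM in Neg Cre). Acta2 carried the rise of this sum, at a mean of 779 FPKM in Pos Cre and 194 FPKM in Neg Cre libraries. The 2 that fell were Abcc9 (log2 change -1.08) and Kcnj8 (-0.39). Among 10 endothelial markers 1 rose and 3 fell (359.7 to 423 FPKM in Pos Cre, 433 to 498 FPKM in Neg Cre). Of 7 skeletal muscle markers Myh1, Myh2, Myh4, Actn3 and Myog stayed under 1 FPKM in each library, and the list summed to 6.53 to 10.1 FPKM in Pos Cre, where Tnnt3, which rose, averaged 6.95 FPKM, and to 0.392 to 1.20 FPKM in Neg Cre libraries. The 5 adipocyte markers summed to 0.05 to 1.81 FPKM in Pos Cre and 0.645 to 3.70 FPKM in Neg Cre libraries. The 5 neutrophil markers summed to 1.93 to 5.51 FPKM in Pos Cre and 2.60 to 74.9 FPKM in Neg Cre libraries.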

How the data were processed

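RNA of 8 ventricular lysates was sequenced from stranded libraries after ribosomal RNA depletion, per the labels' protocols. The authors deposited FPKM values, 1 per gene symbol and library, and the submitters' processing notes list Bowtie2 2.2.6, Cufflinks and the build mm10, with aligner settings, annotation, strand use and filters not stated in any source at hand. The lowest deposited value is 0.01 FPKM, and 6 cells of 3 genes hold a word and were treated as missing; none belongs to a gene described here. Fragment totals are absent from the table and were estimated from 3664 genes with 1 transcript of 500 to 4000 bases (GENCODE M21), whose FPKM times length clusters at the value of 1 fragment; these estimates cover counting error only. Starts were moved to count from 1.

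Groups were compared with limma 3.58.1 in R 4.3.3 on log2(FPKM + 1), with a trend of variance on mean, for genes that average 1 FPKM or more. Log2 changes on this scale understate low genes. Isoform shares were compared by an exact permutation test. The code was tested on simulated data. Alternatives were other pseudocounts, filters and scalings (a fixed sum leaving out small RNA and ribosomal protein genes, and quantile normalization). Others were the variance model, the split by Rn45s level (as a term or as separate fits), a replicate block and leaving out each library. Averaging Neg Cre libraries 1 and 2 was chosen after seeing the data. Members, lists and tests were chosen with earlier results of these data known. The text names all 9 members, the other glycogen genes that were called and the 3 most abundant that were not; further genes were named after their values were seen. Marker lists were textbook lists; 1 skeletal muscle marker, Mymk, has no value here. Of the other glycogen genes 1 is not reported here and is left out of the counts.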

Additional observations from a re-analysis of the deposited data

Results flagged for a closer look

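Within groups of 4 libraries, 46 sets of values were searched for a library far from the others, of which chance marks about 1 in 20. Ppp1ca in Pos Cre library 1 stood at 196.0 FPKM, below the other Pos Cre libraries, which lay within 198.3 to 198.4 FPKM, so that the gap is small beside the level. Pos Cre library 1 also has the lowest estimated depth, 4480000, and the highest Rn45s level, 1053 FPKM, and the part of these in the value was not tested.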

How the results depend on the processing

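None of the members called on the deposited scale was called in the opposite direction in any of the 20 other settings. Over all members and settings with a value, 161 values kept their side of the threshold, 13 lost a call and 5 gained one. Among the 10 other glycogen genes named by rule, 175 kept their side, 17 lost a call and 7 gained one. Members called lower were 5 in the main setting, 2 after scaling to a fixed sum, 3 after quantile normalization and 4 to 7 when 1 library was left out, and the member called higher was lost (0) in the 3 low-Rn45s libraries, where Neg Cre has 1 library that is assumed to vary like the others. Other glycogen genes called higher were 3 in the main setting, 5 without a filter and 5 with the Rn45s level (high or low) as a term. They were 11 after scaling to a fixed sum and 3 to 5 when 1 library was left out. Other glycogen genes called lower were 4 in the main setting, 2 without a filter, 2 in the high-Rn45s libraries, 2 after scaling to a fixed sum and 2 to 3 when 1 library was left out (2 without Pos Cre library 4 or Neg Cre library 3). Over all genes that scaling gave 5497 higher and 1008 lower calls. The deposited FPKM summed over all genes was lower in each Pos Cre library than in any Neg Cre library. Why these sums differ was not tested, nor was the cause of the shifts in the other settings. The share of Pygm differed by 13.8 percentage points after quantile normalization, by 12.9 among high-Rn45s libraries and by 8.74 among low-Rn45s ones, by 12.1 with Neg Cre libraries 1 and 2 averaged, and by 11.1 to 12.8 when 1 library was left out. For Pygb these were -13.8, -13.1, -8.79, -12.3 and -12.9 to -11.3. After quantile normalization both shares kept an exact adjusted p of 0.0429. With fewer libraries the exact test of a share cannot reach an adjusted p of 0.05 by construction. Synthesis minus breakdown ranged from 0.122 to 0.226. Same-numbered libraries of the 2 groups did not deviate together (correlations across genes of -0.162 to -0.0776, and no Pos Cre library correlated best with its own number). No pairing by number was thus seen, though so few libraries cannot exclude one. With the number as a replicate block, 4 members were called lower and 1 higher, and Pgm2 lost its call (log2 change -0.42, adjusted p = 0.0546). Under the filter of a mean of at least 5 FPKM, Pygl and Nhlrc1 have no value. Of the members, Pygl has the fewest estimated fragments.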

Other observations

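Of the genes of glycogen metabolism listed, 3 did not reach a mean of 1 FPKM and were not tested. Liver glycogen synthase, Gys2, was listed at 0.01 FPKM in 7 of the 8 libraries and at 0.016 FPKM in Pos Cre library 4. Ppp1r3e stood at 0.01 to 0.212 FPKM in Pos Cre and 0.01 to 0.685 FPKM in Neg Cre libraries. Ppp1r3g, a targeting subunit of protein phosphatase 1, stood at 0.01 to 0.130 FPKM in Pos Cre and 0.152 to 0.603 FPKM in Neg Cre libraries. Near the filter, Ppp1r3f stood at 1.21 to 1.46 FPKM in Pos Cre and 0.835 to 1.04 FPKM in Neg Cre libraries, with no overlap. Its log2 change of 0.28 was not called (limma adjusted p = 0.0531), and the locus given for it also spans its neighbours Ccdc22 and Foxp3.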
